A study of Mus musculus with 10 samples.

Results

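Smooth muscle contractile genes encode the actin filaments, myosin subunits and thin filament regulators with which smooth muscle cells and pericytes generate force. In smooth muscle they are switched on together by serum response factor (SRF), a transcription factor that binds CArG boxes in their promoters, with myocardin or the myocardin-related factors as its coactivators. Many of them are also made by cultured stromal cells and myofibroblasts, so bone marrow stromal cells on plastic commonly express part of the programme.

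The 10 genes described here were Acta2, Actg2, Tagln, Cnn1, Myl9, Myh11, Cald1, Tpm1, Tpm2 and Lmod1, of 19938 genes with a probe set of their own. They were taken as a named list, each through the probe set annotated to that symbol alone, and each of the 10 had 1 such probe set. They were measured in bone marrow mesenchymal stromal cells (MSC), marrow cells that adhere to plastic and resemble fibroblasts, from female C57BL/6J mice aged 6 to 8 weeks, at passage 16 to 17, in a commercial murine mesenchymal medium with its supplement. There were 5 independent preparations, MSC I, MSC II, MSC III, MSC IV and MSC V, with 2 arrays each, no treatment and no control among them. All 5 were long-passaged. Nothing in the labels tells if the replicates came from separate cultures, so p-values cover the spread between arrays only, and this may be technical.

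Levels are the deposited log2 values, on which a difference of 1 is a fold of 2, and the number of arrays limits their precision. Testing required 2 or more arrays over the table median of 6.55 log2, and 10971 genes met this. A call needed both an adjusted p below 0.05 and a size of 1 log2 or more. The arrays of a preparation correlated at r = 0.990 to 0.993 over all probe sets, and arrays of different preparations at r = 0.939 to 0.986, as a description of arrays that share their probes. Of 16 stromal marker genes 16 were tested, of 10 blood cell markers 2 (Cd14 and Cd68), and of 12 endothelial markers 1 (Eng, which stromal cells also express). Eng stood at 9.69 and 9.50 log2 in MSC IV, against 5.57 to 5.85 in the other 8 arrays, so it was tested through the MSC IV arrays alone. Of 19 skeletal muscle markers 2 were tested (Acta1 and Actn3), and of 13 heart muscle markers 3 (Actc1, Tnnc1 and Tnnt2). The mean level of the skeletal muscle list was 5.62 and 5.76 in the MSC IV arrays, against 5.54 to 5.65 in the other 8 arrays.

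MSC IV had the lowest level of most of the programme. The actin gene Actg2, the actin-binding genes Tagln and Cnn1, the tropomyosin Tpm2 and the myosin light chain Myl9 were all lower there than in the other four preparations, by 14.7-fold for Actg2 and 2.72-fold for Myl9. Acta2, Cald1 and Tpm1 stayed between 12.16 and 13.07 log2 in the MSC IV arrays, and Myh11 was low in all 5 preparations. Of 9 members tested 5 were called lower in MSC IV, where 7.70% of all tested genes were. The median difference of the 9 was -1.44 log2 in MSC IV, against 0.0099 log2 over all tested genes. Under the 18 alternatives run for MSC IV, single arrays left out included, the count stayed at 5 or 6. Both MSC IV arrays lay below all 8 others for 6 of the 9, these 5 and Acta2, where 12.1% of all tested genes did so. Fewer cells with the programme and less RNA per cell cannot be told apart in these bulk samples.

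**Figure D1:**
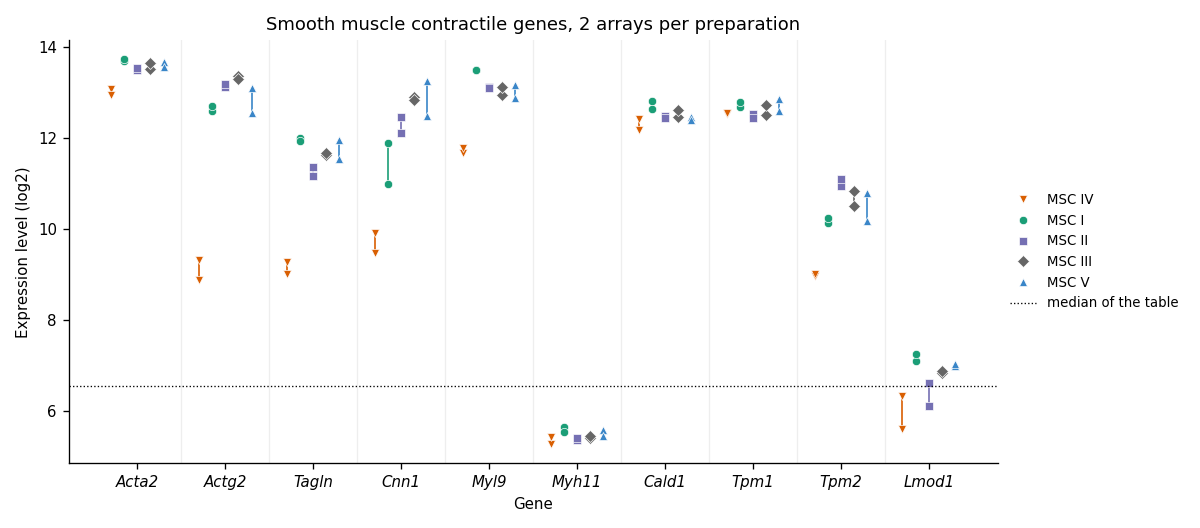
Level (log2) of each contractile gene in the 10 arrays, with 2 points and a joining line per preparation and the median of the table as a dotted line. For Actg2, Tagln, Cnn1, Myl9 and Tpm2 the MSC IV arrays lie well below the other 8, for Cald1 and Tpm1 they lie among or next to them, and for Myh11 all arrays lie between 5.26 and 5.64.

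Promoters were read from RefSeq (GRCm38.p6), as the 250 bases before to the 50 bases after each annotated start, and 7 of the 10 genes had an entry, Cald1 with 2. Actg2, Tagln and Myh11 were not among them. A CArG box was searched as CC, then 6 bases that are each A or T, then GG, a pattern that reads as a CArG box on the other strand too. The looser form, with 1 of the 6 bases being G or C, was searched as well and cannot fall on the same 10 bases. Of 32851 promoters of the same length, 1.63% held a full CArG box and 8.50% held the looser form. The promoters of Myl9 and Acta2 are shown because they were the members with a match, with the matches in capitals. The Myl9 promoter lies at chr2:156775214-156775513 on the plus strand and the Acta2 promoter at chr19:34255324-34255623 on the minus strand, each written 5′ to 3′ along the gene.
Myl9: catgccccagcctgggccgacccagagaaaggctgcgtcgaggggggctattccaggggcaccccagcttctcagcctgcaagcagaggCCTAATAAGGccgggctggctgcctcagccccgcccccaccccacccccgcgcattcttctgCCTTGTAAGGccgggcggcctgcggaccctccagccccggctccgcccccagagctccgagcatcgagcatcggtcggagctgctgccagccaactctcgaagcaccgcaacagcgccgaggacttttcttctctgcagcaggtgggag
Acta2: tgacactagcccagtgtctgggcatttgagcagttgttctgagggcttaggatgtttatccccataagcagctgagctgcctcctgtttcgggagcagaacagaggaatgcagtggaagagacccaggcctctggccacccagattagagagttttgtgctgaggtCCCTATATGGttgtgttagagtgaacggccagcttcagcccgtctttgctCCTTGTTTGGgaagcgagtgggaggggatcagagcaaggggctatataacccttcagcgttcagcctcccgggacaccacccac
Myl9 had the full box CCTAATAAGG beginning 161 bases before the start and the looser CCTTGTAAGG 99 bases before it. Acta2 had 2 looser boxes, CCCTATATGG at 84 and CCTTGTTTGG at 34 bases before the annotated start. A match is a description of the letters and not a measured site. Myl9, with a full box, was called lower in MSC IV, and Acta2, with looser boxes, moved by less than the minimum. Cnn1 and Tpm2, with neither form in this window, were also called lower, and Lmod1, Cald1 and Tpm1, also with neither, were not.

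Among the actins, Acta2 (smooth muscle alpha-actin; chromosome 19, 34240336 to 34255585 in GRCm38.p6) and Actg2 (smooth muscle gamma-actin, best known from gut and bladder muscle; chromosome 6, 83512909 to 83536251) were both lowest in MSC IV. Acta2 stood at 13.07 and 12.95 log2 in the MSC IV arrays. It stood at 13.69 and 13.72 in MSC I, 13.49 and 13.54 in MSC II, 13.52 and 13.65 in MSC III, and 13.67 and 13.57 in MSC V. Both MSC IV arrays lay below the other 8, and the range of all 10 was narrow. The difference was -0.59 ± 0.0889 log2 (SE), a level 1.51-fold lower, with adjusted p = 0.00269 in limma but short of the minimum of 1. The mean of Acta2 exceeded that of 99.5% of all probe sets, and the highest value in the table was 14.59 log2.

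Actg2 stood at 8.88 and 9.32 log2 in the MSC IV arrays. Its levels were 12.58 and 12.69 in MSC I, 13.12 and 13.18 in MSC II, 13.35 and 13.29 in MSC III, and 13.09 and 12.54 in MSC V. The gap between the higher MSC IV array and the lowest other array, 12.54, was far wider than the spread within any preparation. MSC IV differed from the mean of the other four by -3.88 ± 0.16 log2 (adjusted p = 1.93e-05), the largest difference of the 10 genes. The difference of the log2 values of Actg2 and Acta2 averaged -3.91 in the MSC IV arrays and -0.62 in the other 8 arrays (SD 0.37). These differ by -3.29 log2, given as a description, since the pair was set side by side after its values were seen. The coding sequences of actins are very similar, and cross-hybridisation between their probe sets was not tested.

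The actin-binding genes Tagln and Cnn1 shared the low level in MSC IV. Tagln encodes transgelin, also called SM22-alpha, an early marker of the smooth muscle programme (chromosome 9, 45929628 to 45936058). It stood at 9.003 and 9.26 log2 in the MSC IV arrays. Its levels were 11.99 and 11.93 in MSC I, 11.16 and 11.36 in MSC II, 11.62 and 11.67 in MSC III, and 11.96 and 11.53 in MSC V. No array of another preparation came within 1 log2 of MSC IV, and the difference was -2.52 ± 0.13 log2 (adjusted p = 3.95e-05), or 5.74-fold lower.

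Cnn1 encodes calponin 1, which binds actin and restrains the myosin ATPase (chromosome 9, 22099221 to 22109221). It stood at 9.91 and 9.47 log2 in the MSC IV arrays. Its levels were 10.99 and 11.89 in MSC I, 12.10 and 12.46 in MSC II, 12.89 and 12.82 in MSC III, and 13.25 and 12.49 in MSC V. The MSC IV arrays were again the 2 lowest, and the difference was -2.67 ± 0.28 log2 (adjusted p = 0.000579), or 6.37-fold. Cnn1 had the widest replicate spread of the members, with an SD of 0.64 log2 between the MSC I arrays.

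Lmod1 encodes leiomodin 1, which nucleates actin filaments in smooth muscle (chromosome 1, 135324813 to 135368065), and lay near the median of the table. It stood at 6.33 and 5.60 log2 in MSC IV, 7.10 and 7.25 in MSC I, 6.11 and 6.61 in MSC II, 6.83 and 6.87 in MSC III, and 6.99 and 7.03 in MSC V. MSC IV and MSC II overlapped, and MSC I, III and V lay above them. The difference of MSC IV was -0.89 ± 0.20 log2 (adjusted p = 0.0131), under the minimum of 1. Without MSC IV replicate 1 it was called too, making 6 members in place of 5.

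Among the myosin subunits, Myl9, the regulatory light chain that is phosphorylated to start contraction (chromosome 2, 156775408 to 156781657), was lower in MSC IV. It stood at 11.66 and 11.78 log2 in the MSC IV arrays, against 12.88 to 13.49 in the other 8, whose highest values were both MSC I arrays. The difference was -1.44 ± 0.10 log2 (adjusted p = 0.000127). Myh11, the smooth muscle myosin heavy chain and the most specific marker of mature smooth muscle in the list (chromosome 16, 14194527 to 14292188), stood at 5.26 and 5.42 in MSC IV and 5.37 to 5.64 in the other 8 arrays. Those values lay under the filter, so Myh11 was not tested, and MSC IV overlapped the others.

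Other genes known from mature smooth muscle, named here after their values were seen, lay on both sides of the table median. The BK channel subunit Kcnmb1 lay between 4.63 and 4.91 log2 over the 10 arrays, and Casq2, a calcium store protein, between 4.97 and 5.14. Desmin, Des, reached 6.53 in MSC I replicate 1 and was also not tested. Smoothelin, Smtn, lay between 8.90 and 11.16 over the 10 arrays, and the myosin light chain kinase Mylk between 8.52 and 10.39. Low RMA values do not show that a transcript was absent.

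Among the thin filament regulators, Tpm2 was called lower in MSC IV and Tpm1 and Cald1 were not called. Tropomyosin lies along the actin filament and gates the binding of myosin. Tpm2 (chromosome 4, 43513726 to 43523583) stood at 8.95 and 9.01 log2 in the MSC IV arrays. Its levels were 10.13 and 10.23 in MSC I, 10.95 and 11.09 in MSC II, 10.50 and 10.83 in MSC III, and 10.79 and 10.17 in MSC V. The MSC IV arrays lay below all others, with a difference of -1.60 ± 0.17 log2 (adjusted p = 0.000579), or 3.03-fold.

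Tpm1 (chromosome 9, 67022590 to 67049672) stood at 12.53 and 12.55 log2 in MSC IV, against 12.43 to 12.85 in the other 8 arrays. MSC IV lay inside the range of the others, and the difference was -0.0942 ± 0.11 log2 (95% interval -0.34 to 0.16, adjusted p = 0.529). The difference of the log2 values of Tpm2 and Tpm1 averaged -3.55 in the MSC IV arrays and -2.05 in the other 8 arrays (SD 0.45), which differ by -1.51 log2, again as a description. Caldesmon, Cald1, which binds actin, tropomyosin and myosin (chromosome 6, 34598495 to 34775469), stood at 12.42 and 12.16 in MSC IV, against 12.40 to 12.81 in the other 8 arrays. The groups overlapped, and the difference was -0.25 ± 0.11 log2 (95% interval -0.49 to 0.00022, adjusted p = 0.111). Tpm1 and Cald1 both have smooth muscle and widely expressed isoforms, which 1 probe set per gene does not separate.

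**Figure D2:**
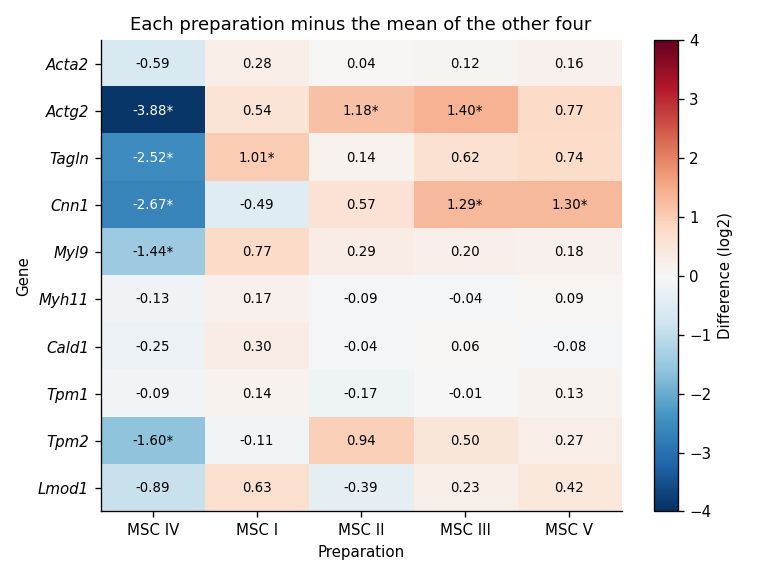
Difference (log2) of each preparation from the mean of the other four, for the 10 contractile genes in rows and the preparations in columns, with called differences starred. The column of MSC IV holds the 5 lower calls, from -3.88 for Actg2 to -1.44 for Myl9, while the starred values of the other columns lie between 1.01 and 1.40.

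The other 4 preparations were seldom called apart in these genes. In limma's moderated F test over all 5 preparations, 6 of the 9 members tested were called, where 29.1% of all tested genes were. They were Actg2 (range of means 4.22 log2, adjusted p = 2.88e-05), Tagln (2.83), Cnn1 (3.18), Tpm2 (2.03), Myl9 (1.77) and Lmod1 (1.21, adjusted p = 0.0210), and MSC IV held the lowest mean of all 6. The Lmod1 call ended at 1.13 log2 (adjusted p = 0.0536) when MSC I replicate 2 was left out and at 0.84 when MSC IV replicate 2 was, and the gene was not tested at the stricter filter. Of the 36 combinations of a member with a pair that included MSC IV, 22 were called, against 12.1% over all genes. Of the 54 combinations with a pair of the other preparations, 2 were called, against 7.89% over all genes.

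Those 2 calls were Cnn1 in MSC I against MSC III and in MSC I against MSC V. Cnn1 averaged 11.44 ± 0.64 log2 in MSC I, 12.86 ± 0.0457 in MSC III and 12.87 ± 0.54 in MSC V (SD, n = 2 each). MSC I was lower than MSC III by -1.42 ± 0.35 log2 (SE, adjusted p = 0.0228), where 4.85% of all tested genes were called lower. It was lower than MSC V by -1.43 ± 0.35 log2 (adjusted p = 0.0233), where 4.43% were. Both calls ended without MSC I replicate 1 (-0.97, adjusted p = 0.128, and -0.98, adjusted p = 0.113), the lower of its arrays. Leaving out MSC III replicate 1 (adjusted p = 0.109) or replicate 2 (0.0807) ended the call against MSC III. Leaving out MSC V replicate 1 (0.113), or fitting the 4 arrays of the pair alone, ended the call against MSC V.

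The order of the other preparations was not the same in every gene. By mean, Tagln ran from MSC I through MSC V and MSC III to MSC II, and Tpm2 from MSC II through MSC III and MSC V to MSC I. Actg2 was highest in MSC III and Cnn1 in MSC V. In none of the 9 members tested were neighbours of these 4 in the order called. Both MSC I arrays lay above all 8 others for Acta2, Myl9, Cald1 and Lmod1, 4 of the 9 members tested, where 15.1% of all tested genes did so. Of these, Myl9 had the largest difference in MSC I, 0.77 ± 0.10 log2 (adjusted p = 0.00117), and all 4 were under the minimum of 1.

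Set against the other four, the remaining preparations had 5 calls, all of them higher. They were Tagln in MSC I (1.01 ± 0.13 log2, adjusted p = 0.00102), where 7.73% of all tested genes were called higher, and Actg2 in MSC II (1.18 ± 0.16, adjusted p = 0.00405), where 2.45% were. In MSC III, with 1.31% of genes called higher, they were Actg2 (1.40 ± 0.16, adjusted p = 0.00446) and Cnn1 (1.29 ± 0.28, adjusted p = 0.0421), and in MSC V, with 2.11%, Cnn1 (1.30 ± 0.28, adjusted p = 0.0254). All 5 ended once MSC IV was left out of the mean they were set against. Tagln in MSC I was then 0.41 (adjusted p = 0.0501), Actg2 0.22 in MSC II (adjusted p = 0.372) and 0.46 in MSC III (adjusted p = 0.151), and Cnn1 0.66 in MSC III (adjusted p = 0.200) and 0.68 in MSC V (adjusted p = 0.166). The call that appeared without MSC IV was Cnn1 in MSC I, at -1.23 ± 0.29 log2 (adjusted p = 0.0137). In that comparison 535 of 10971 tested genes were called lower, and 11.5% were called in either direction. Single arrays also ended several of the 5. The Actg2 call in MSC III ended without either of its own arrays (1.37, adjusted p = 0.0645, and 1.43, adjusted p = 0.0666). The Cnn1 call in MSC III had an adjusted p between 0.0526 and 0.275 without any 1 of 8 arrays, and the Cnn1 call in MSC V ended without MSC V replicate 1 (0.92, adjusted p = 0.194) or MSC III replicate 1 (adjusted p = 0.0531). The Tagln value in MSC I lay just past the minimum, and fell to between 0.96 and 0.99 without MSC I, II or IV replicate 1 or MSC V replicate 2.

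Many regulators of the programme differed among the preparations, while the core factors Srf, Mrtfa and Mrtfb did not pass the test. Srf stood at 9.33 log2 in MSC IV, against a mean of 9.53 to 9.82 in the others (difference -0.32 ± 0.15, adjusted p = 0.143). The coactivators Mrtfa (-0.65 ± 0.22, adjusted p = 0.0564) and Mrtfb (0.0822 ± 0.13, adjusted p = 0.644) also missed the threshold, at means of 9.46 and 10.21 in MSC IV. Myocardin, Myocd, the coactivator most specific to muscle, stood at 7.33 and 7.12 in MSC IV, over the table median of 6.55. Of the other 8 arrays only MSC II replicate 2, at 6.92, lay over that median, so Myocd needed an MSC IV array to pass the filter. Myocd was highest in MSC IV, against 4.79 to 6.92 in the other 8 arrays (1.35 ± 0.34, adjusted p = 0.0204). That call ended without either MSC IV array (adjusted p = 0.114 and 0.109).

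Listed regulators numbered 24, and of the 23 tested 16 were called over all preparations, where 29.1% of all tested genes were. In MSC IV 6 were lower and 4 higher, where 7.70% of all tested genes were called lower and 3.29% higher. Of those 4, Myocd and Hey1 would not have passed the filter without MSC IV arrays. The median difference of the 23 in MSC IV was -0.41 log2. Fhl1, a LIM domain protein, stood at 6.54 and 6.01 in MSC IV, against 9.03 to 11.43 in the other 8 arrays (-4.30 ± 0.41, adjusted p = 0.000424). Fhl2, which is itself induced by SRF and binds it, stood at 8.97 and 8.91, against 10.91 to 12.41 (-2.49 ± 0.0919, adjusted p = 1.3e-05). Tgfb1i1, also called Hic-5 and found at focal adhesions, stood at 8.92 and 9.07, against 10.56 to 11.71 (-2.03 ± 0.12, adjusted p = 5.23e-05). In Fhl1, Fhl2 and Tgfb1i1 the MSC IV arrays lay below the other 8. The LIM domain gene Csrp2 was called over all preparations (range of means 2.94) and stood at 11.21 and 11.01 in MSC IV, inside the 8.96 to 11.95 of the other 8 arrays, whose lowest were both MSC I arrays (0.0262 ± 0.0992, adjusted p = 0.858).

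The transcription factors Gata6 (-3.26 ± 0.18 log2, adjusted p = 4.28e-05) and Foxc2 (-2.29 ± 0.17) and the Notch ligand Jag1 (-1.68 ± 0.34) were the other lower regulators. Foxc2 was nearly as low in MSC I, at 6.70 and 6.77, as in MSC IV, at 6.49 and 5.93. Jag1 in MSC IV overlapped MSC II and MSC V, and its call ended without MSC IV replicate 2 (adjusted p = 0.105) or once the mean no longer held MSC I (-0.93). Of the higher regulators, Klf4, which represses contractile genes in cultured mouse smooth muscle, stood at 9.27 and 10.07 in MSC IV, against 6.12 to 8.01 in the other 8 arrays (2.69 ± 0.33, adjusted p = 0.00121). Mef2c, a muscle and bone transcription factor, stood at 12.35 and 11.93, against 7.03 to 11.02 (3.03 ± 0.29, adjusted p = 0.000416). The Notch target Hey1 stood at 8.62 and 8.84, against 5.12 to 5.49 (3.38 ± 0.10, adjusted p = 7.27e-06). Hey1 passed the filter through the MSC IV arrays alone, so it had to be higher there, and without either of them it was not tested. The higher regulators were then 2, Klf4 and Mef2c.

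**Figure D3:**
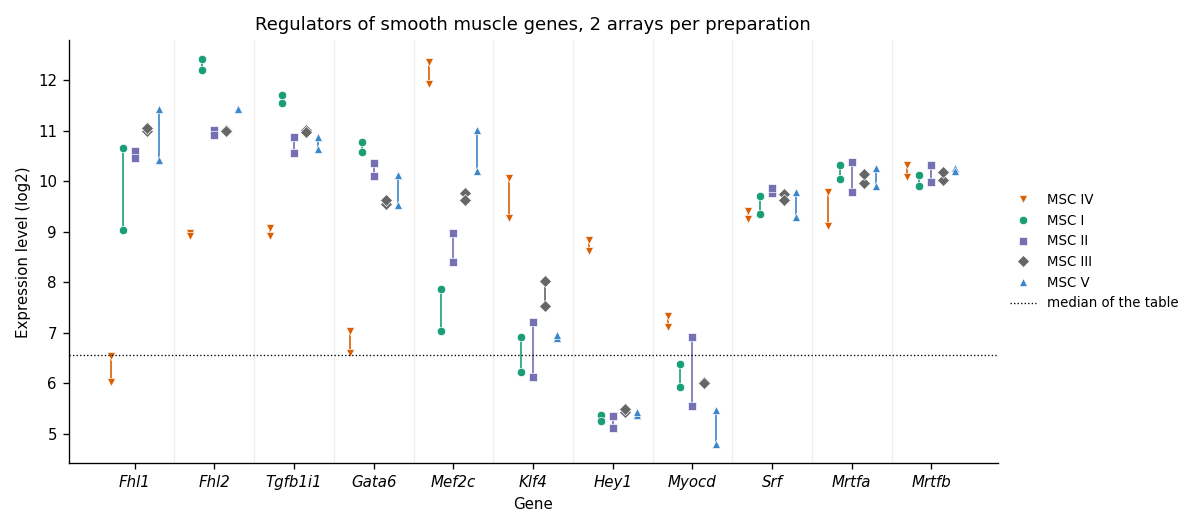
Level (log2) of 11 regulators in the 10 arrays, 2 points and a joining line per preparation, with the median of the table dotted. Fhl1, Fhl2, Tgfb1i1 and Gata6 are lower in MSC IV than in every other array, Mef2c, Klf4, Hey1 and Myocd are higher, the arrays of Srf and Mrtfb overlap, and for Mrtfa the higher MSC IV array and the lowest other array both lie at 9.80.

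Other contractile and dense-plaque genes, the latter anchoring actin to the membrane, moved in both directions. Of 42 listed, 40 had a probe set, 31 were tested and 16 were called over all preparations, where 29.1% of all tested genes were. In MSC IV 6 were lower and 3 higher, against 7.70% and 3.29% of all tested genes, with a median difference of -0.55 log2. The lower ones included the actin-binding protein smoothelin, Smtn (-1.14 ± 0.22, adjusted p = 0.0076), the adaptor vinexin, Sorbs3 (-1.59 ± 0.30), and the integrin subunits Itga1 (-2.44 ± 0.32, adjusted p = 0.00153) and Itga8 (-1.12 ± 0.30). Sorbs3 in MSC IV, at 8.11 and 6.96, overlapped MSC III, at 7.99 and 8.83. Itga8 passed the filter through the MSC I arrays alone, at 9.75 and 9.68. In MSC IV, at 6.21 and 5.07, Itga8 overlapped the 5.41 to 6.37 of MSC II, III and V. The other lower genes were Smoc1 and the amine oxidase Aoc3. Smoc1 was lower still in MSC II, at 6.06 and 6.74, than in MSC IV, at 8.12 and 7.41. Aoc3 in MSC IV, at 5.70 and 5.07, lay close to MSC III, at 5.74 and 5.76. The higher ones were the junction protein Pgm5 (4.53 ± 0.55, adjusted p = 0.00111), the prostacyclin synthase Ptgis and the receptor subunit Ramp1, which passed the filter through MSC IV alone. Ptgis stood at 9.75 and 11.49 in MSC IV. Its mean was higher still in MSC III, at 11.12 and 10.98, and in MSC V, at 11.82 and 11.42. Without MSC IV replicate 2 there was 1 lower and 1 higher call, of Itga1 and Pgm5. Itga1 was about as low in MSC II, at 5.38 and 5.94, as in MSC IV, at 5.84 and 4.93. Once the mean no longer held MSC I, the calls of Itga8 (-0.13), Aoc3 (-1.41, adjusted p = 0.115) and Ptgis (0.60) ended. Cytoplasmic beta-actin, Actb, named here whatever its value, differed by -0.0745 ± 0.0805 log2 in MSC IV (adjusted p = 0.505).

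**Figure D4:**
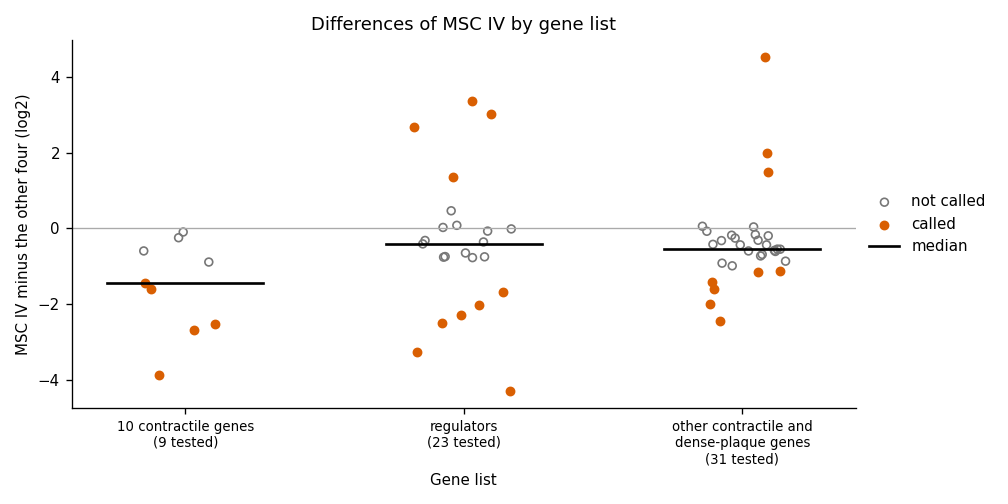
Difference (log2) of MSC IV from the mean of the other four for every tested gene of the contractile list, the regulators and the other contractile and dense-plaque genes, with called genes filled and medians as bars. The medians are -1.44 for the contractile list, -0.41 for the regulators and -0.55 for the other contractile and dense-plaque genes.

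Other gene groups differed in the same preparation. The osteoblast, proliferation and adipocyte lists were added after the data were seen. Of 10 osteoblast genes tested, 5 were higher in MSC IV, where 3.29% of all tested genes were. The mean level of the list was 10.10 and 9.91 log2 in the MSC IV arrays, against 6.26 to 8.47 in the other 8. Its gene Panx3 stood at 11.58 and 12.13 in MSC IV, against 4.69 to 5.65 in the other 8 arrays. Panx3 passed the filter through MSC IV alone, so it had to be higher there. Of 14 proliferation genes tested, 7 were lower in MSC IV, against 7.70% of all tested genes, and the mean level of that list was 9.79 and 9.04, against 9.34 to 11.40. The arrays of MSC II, at 9.34 and 10.25 in proliferation genes, overlapped MSC IV there and did not overlap it in Actg2, Tagln, Cnn1, Myl9 or Tpm2. In MSC I, where Acta2, Myl9, Cald1 and Lmod1 were highest, 10 of 10 adipocyte genes were higher, against 7.73% of all tested genes. The mean level of that list was 11.08 and 10.47 in MSC I, against 6.396 to 7.11 in the other 8 arrays. Its genes Adipoq, Cd36, Plin1 and Cidec passed the filter through the MSC I arrays alone, so they had to be higher there. Of 12 pericyte markers 5 were tested, and the mean level of the list was 6.51 and 6.62 in MSC IV, against 6.23 to 6.72. All 5 tested were called over all preparations, where 29.1% of all tested genes were. Of them 1, Anpep, was called in MSC IV, where it was higher (2.11 ± 0.17, adjusted p = 0.000206). Anpep stood at 9.53 and 9.74 in MSC IV, close to MSC III, at 9.37 and 9.29. It stood at 8.50 and 8.70 in MSC II and at 5.09 to 6.92 in MSC I and MSC V. Pdgfrb, shared with stromal cells, stood at 11.46 and 10.83 in MSC IV, against 11.26 to 12.33. Cspg4 was not tested and stood at 6.50 and 7.20 in MSC IV, against 4.94 to 5.39, while Kcnj8, Higd1b and Vtn, also not tested, had preparation means between 4.76 and 5.22. Of the 16 stromal markers 12 were called over all preparations, where 29.1% of all tested genes were. In MSC IV 5 were lower (Cxcl12, Vcam1, Pdgfra, Cd34 and Col3a1) and 2 higher (Nt5e and Eng), against 7.70% and 3.29% of all tested genes. Eng passed the filter through the MSC IV arrays alone, so it had to be higher there. Cd34 was lower still in MSC I, at 5.69 and 4.96, than in MSC IV, at 7.60 and 6.76. Cxcl12 stood at 9.51 and 9.25 in MSC IV, against 11.98 to 12.93 in the other 8 arrays, and Vcam1 at 7.03 and 6.46, against 9.48 to 11.11. The part of these groups in the contractile differences was not tested.

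For the 4 members with a range of at least 2 log2, the 2 genes of the most similar pattern were taken from 3616 tested genes with a range of at least 1 log2, by Pearson r over the 10 arrays. These r are descriptions, since the arrays of a preparation are not independent and MSC IV lies apart. For Cnn1 they were Fhl1 (r = 0.973) and the primase subunit Prim1 (r = 0.957), and without the MSC IV arrays r was 0.919 and 0.881. For Tagln they were Lrch2 (r = 0.994) and the chromatin protein Hmga2 (r = 0.988), at 0.905 and 0.8001 without MSC IV. Hmga2 averaged 6.76 log2 in MSC IV and 10.05 in the others. For Tpm2 they were Kdm8 (r = 0.978) and Abracl (r = 0.970), at 0.936 and 0.951 without MSC IV. For Actg2 they were the surface protein gene Ly6e (r = 0.982) and Glipr1 (r = 0.971), at 0.634 and 0.0487 without MSC IV, so the likeness of Glipr1 to Actg2 lay in the MSC IV arrays.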

How the data were processed

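Total RNA was labelled with biotin and hybridised to 10 single-colour arrays, 2 per preparation, grouped by sample title. The authors deposited a complete table of log2 values for 35399 probe sets. Per the submitters' processing notes they used RMA and Partek, listed without versions. In general RMA corrects background, normalises arrays by quantiles and summarises probes on the log2 scale. In the platform annotation 21789 probe sets had 1 gene symbol, 1621 several and 11989 none, and those with 1 symbol were used, per gene the one with the highest mean. Array medians lay between 6.45 and 6.63 log2.

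In R 4.3.3, limma 3.58.1 (lmFit, eBayes) fitted 1 mean per preparation to all 10 arrays, with a shared spread. Python 3.11.15 prepared tables, figures and promoter matches. Within a comparison, two-sided p-values received a Benjamini-Hochberg adjustment over all 10971 genes tested. Errors after a level are SD and after a difference SE. The fit was tested on simulated data.

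The members and gene lists were chosen with earlier results of these data known, and the lists of osteoblast, adipocyte and proliferation genes and the values within paralogue pairs were added after the data were seen. The genes named were all members, up to 10 genes a list among those called over all preparations with the widest ranges, Srf, Myocd, Mrtfa and Mrtfb, and the 2 genes most like each member with a range of at least 2 log2. Untested marker genes and other genes outside this rule were named after their values were seen. Alternatives were no filter, a filter at the 75th percentile (9.22 log2), the mean of probe sets, median centring, a second quantile normalisation, a trended and robust eBayes, blocking on replicate number, dropping each array in turn, MSC I or MSC IV left out of the mean compared with, and the arrays of a pair alone. A further gene list is not reported here.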

Additional observations from a re-analysis of the deposited data

How the results depend on the processing

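The count of 5 members lower in MSC IV lay between 5 and 6 under the 18 alternatives, that of 6 members called over all preparations between 5 and 6 under 17, and that of 24 called combinations of member and pair between 22 and 25 under 18. The count of all genes called over the preparations was 3192, and 1861 with the filter at the 75th percentile, where fewer genes were tested. The regulators called were then 10 in place of 16. Counts in the other preparations were small and moved more. The 1 member higher in MSC I became 0 with arrays centred on their medians, with a further quantile normalisation and with MSC IV left out of the mean, and 0 to 1 with single arrays left out. Without MSC IV in the mean, 1 member was lower in MSC I. The 1 member higher in MSC II became 0 without MSC IV in the mean, and 1 to 2 with single arrays left out. The 2 members higher in MSC III became 1 without a filter, with the 75th percentile filter, with the replicate block and without MSC I in the mean, 0 without MSC IV in the mean, and 0 to 2 with single arrays left out. The 1 member higher in MSC V became 0 with the replicate block, 2 without MSC I in the mean and 0 without MSC IV in it, and 0 to 2 with single arrays left out. The causes of these shifts were not tested. Under the replicate block Cnn1 had adjusted p = 0.0892 in MSC III and 0.0582 in MSC V, and the count of members lower in MSC IV was still 5. The replicate numbers did not pair the arrays, since the deviations of same-numbered arrays correlated between -0.55 and 0.20 over 10 pairs of preparations, above 0.1 in 1. Detection calls were not used.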
